A study of Mus musculus with 8 samples.

Results

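Transcripts of the mitochondrial genome were examined in the liver of fasted mice that carried the S155A form of perilipin 5 (PLIN5), a protein of the lipid droplet surface, and of fasted WT mice. The members were all rows of the gene count table whose name begins with mt-, which gave 37 genes of the 45706 in the table, namely 13 mRNAs, 2 rRNAs and 22 tRNAs. Livers came from 4 WT and 4 SA/SA female C57BL/6J mice aged 4 months, kept on regular chow and fasted overnight, with 1 library for each mouse. The SA/SA mice carried the substitution of serine by alanine in every cell on both Plin5 alleles, so the comparison is not one of the liver alone, and no fed mice were part of it. Plin5 itself was counted at 254, 194, 183 and 194 CPM in WT replicates 1 to 4 and 457, 276, 192 and 386 CPM in SA/SA replicates 1 to 4 (CPM, counts scaled to the normalised library size; log2 fold change 0.67, SE 0.24, edgeR adjusted p = 0.993). The genotypes overlapped, and a gene count cannot show the substitution.

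The mitochondrial genome is a small circle of DNA that is copied and transcribed inside the organelle. Its mRNAs encode subunits of the respiratory chain complexes I, III and IV and of the ATP synthase (complex V), while its rRNAs and tRNAs serve the translation of those mRNAs on the mitochondrial ribosome. Both strands are transcribed into long precursors, from which the tRNAs that lie between the other genes are cut out, and the liver relies on the products to oxidise fatty acids during a fast.

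In the annotation of the mouse build GRCm38 (GENCODE release M21) the heavy strand transcript carries 12 of the 13 mRNAs, both rRNAs and 14 tRNAs, and the light strand transcript carries mt-Nd6 and 8 tRNAs. The libraries were made from poly(A) RNA, so the last bases of some mRNAs are shown. Poly(A) tails can be added there and, in some mRNAs, complete the stop codon. The 3 mRNAs whose annotated sequence stops after a single T of the stop codon (in capitals; last 21 bases, 5′ to 3′) were mt-Co3, mt-Nd4 and mt-Cytb, and mt-Nd3 is shown beside them as one of the 10 with a complete stop.
mt-Co3: ccatttattgatgaggatctT
mt-Nd4: taattacaggcctgacaataT
mt-Cytb: aaatactaaaattatatccaT
mt-Nd3: ggattagaatgaacagagTAA

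Total counts lay between 39709785 and 54540864 per mouse. All 10 hepatocyte marker genes were counted in every mouse, summing to 97290.0 to 115367 CPM in WT and 93434 to 132668 CPM in SA/SA mice. Other cell types stood out in a pair of mice. The 8 pancreatic acinar markers summed to 39.9 CPM in WT replicate 2, where 7 were above 0 and Amy2a5 was at 0, against 4.27 to 6.58 CPM in the other mice. Most of the sum in those other mice was Cela1, at 3.86 to 6.12 CPM, against 9.75 CPM in WT replicate 2. The highest value of the other acinar markers in them was 0.554 CPM, for Cela2a in SA/SA replicate 3. The 10 lymphocyte and plasma cell markers, none of them at 0 in any mouse, summed to 2063 CPM in SA/SA replicate 3 against 18.9 to 46.2 CPM in the other mice. Most of that sum came from Ighm at 1164, Igkc at 806 and Jchain at 73.8 CPM. No other marker of the list was above 6.26 CPM there. All markers but Cd8a were highest in that mouse. Cd8a was at 0.634 CPM there, against 0.982 CPM in SA/SA replicate 1. The main results were also computed without these mice. The animals also fell into a low-numbered series (numbers under 200, replicates 1 and 4 of both genotypes) and a high-numbered series (numbers over 800, replicates 2 and 3), and what this numbering stands for is not given in the sources used here.

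Several mitochondrial mRNAs were among the most abundant transcripts of the fasted liver in both genotypes. As a share of all counts the 13 mRNAs took 3.03, 2.92, 3.45 and 3.12% in WT replicates 1 to 4 and 3.14, 2.997, 2.83 and 3.33% in SA/SA replicates 1 to 4. Per kilobase of transcript, mt-Co1, which encodes a core subunit of complex IV, had the highest level in every mouse at 7617 ± 361 CPM per kb (SD, n = 8), followed by mt-Cytb, the cytochrome b subunit of complex III, at 4750.0 ± 363 CPM per kb. By count mt-Co1 ranked between 3 and 7 among all 45706 rows. The next levels, mt-Nd1 at 2775 and mt-Atp6 at 2756 CPM per kb, changed places between mice (mt-Nd1 was higher in 4 of 8), as did mt-Nd4 at 2076 and mt-Nd2 at 2026 CPM per kb (mt-Nd4 was higher in 4 of 8). The lowest level was that of mt-Nd6, the mRNA of the light strand, at 31.4 ± 9.38 CPM per kb. The rRNAs were also low in these poly(A) libraries, with mt-Rnr1 at 162 ± 48.7 and mt-Rnr2 at 127 ± 42.5 CPM per kb. These levels depend on how reads shared with nuclear copies were divided, as described further on. They also depend on how well poly(A) selection captured each RNA, mt-Nd6 included, which was not tested. Counts were divided by the full annotated length with no allowance for fragment size, and the effect on the shortest mRNAs was not tested.

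**Figure D1:**
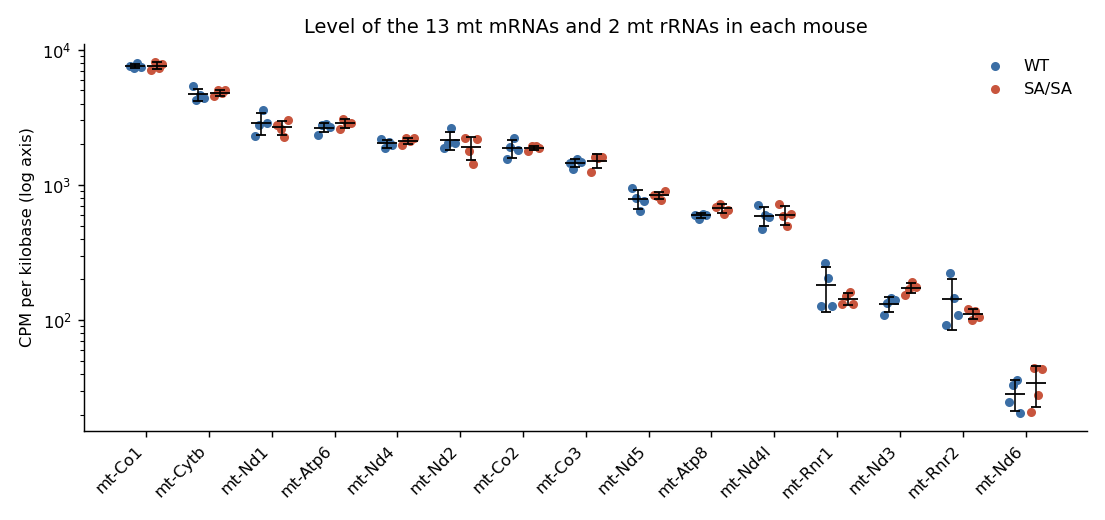
Level of each mitochondrial mRNA and rRNA in CPM per kilobase (log axis), with 1 point per mouse and the mean ± SD of 4 mice per genotype. mt-Co1 is highest and mt-Nd6 lowest, and WT and SA/SA points overlap for all genes shown except mt-Nd3 and mt-Atp8.

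No mitochondrially encoded gene differed between SA/SA and WT livers past the threshold. The 13 mRNAs and 2 rRNAs passed the filter on low counts, and 0 of these 15 reached an adjusted p of 0.05 in edgeR (smallest 0.993), as did 0 of all 14629 genes tested (0% called). DESeq2 called 0 of the 15 and 6 of all genes tested. At an unadjusted p under 0.05 there was 1 of the 15, mt-Nd3, against 3.4% of all genes tested. The CPM of the genotypes did not overlap for 2 of the 15, mt-Nd3 and mt-Atp8, against 2.3% of all genes tested. Of the mRNAs, 11 had a positive and 2 a negative log2 fold change with a median of 0.064, beside a median of -0.0050 over all genes tested. A positive one was found in 48.8% of all genes tested. The signs of the mRNAs come from the same mice and are not independent of one another. For 10 of the 13 the fold change was smaller than its standard error.

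**Figure D2:**
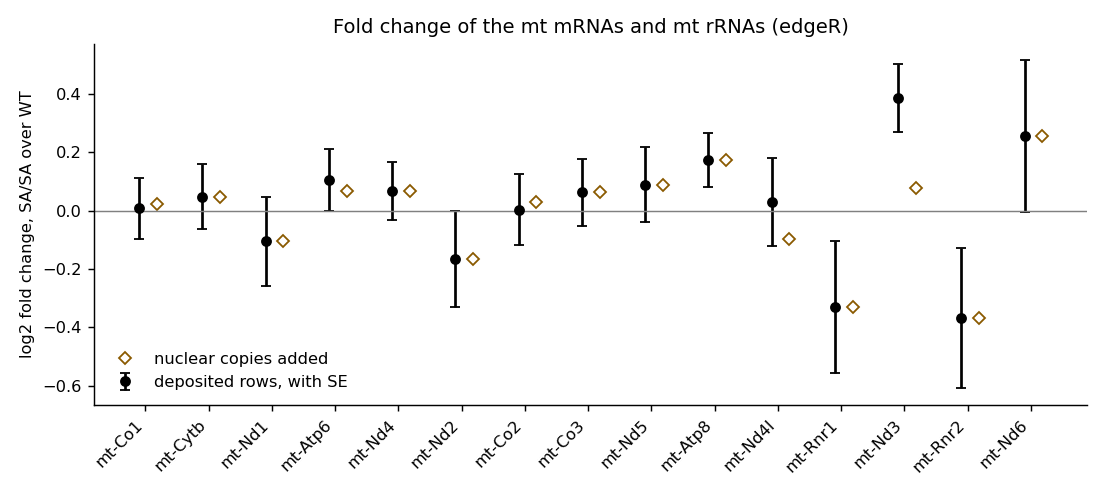
Log2 fold change (SA/SA over WT) of the 13 mRNAs and 2 rRNAs, ordered by level, from the deposited rows (black, with the SE of the edgeR fit) and after the counts of near-identical nuclear copies were added (open diamonds). mt-Nd3 lies at 0.39 from its own row and at 0.078 with its copy.

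The summed level of the 13 mRNA rows differed between genotypes by less than the spread between mice. Expressed as a share of all counts it was 3.13 ± 0.226% in WT and 3.07 ± 0.212% in SA/SA livers (SD, n = 4 each), a log2 ratio of -0.026 (exact permutation p = 0.714, two-sided, where 4 against 4 mice cannot go below 0.0286). WT replicate 3 had the highest and SA/SA replicate 3 the lowest share, and the genotypes overlapped. On the normalised library size the log2 ratio was 0.012, of the opposite sign (exact permutation p = 0.943). With the counts of nuclear copies, described further on, added, the share was 4.13 ± 0.281% in WT and 4.08 ± 0.235% in SA/SA livers (SD, n = 4 each). The log2 ratio was then -0.017 (exact permutation p = 0.743). In bulk liver RNA, fewer mitochondria-rich cells and less mitochondrial RNA in each cell cannot be told apart.

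**Figure D3:**
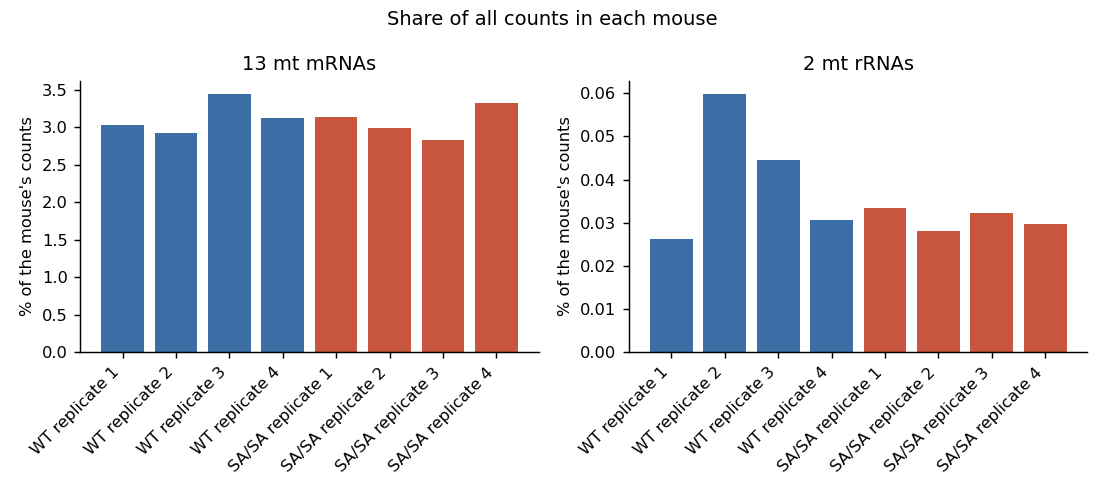
Share of each mouse's counts (%) in the 13 mt mRNAs (left) and the 2 mt rRNAs (right), with 1 bar per mouse, WT in blue and SA/SA in red. The mRNA bars lie between 2.83% and 3.45%, and the tallest rRNA bar, 0.0598%, is that of WT replicate 2.

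Complex I, the NADH dehydrogenase through which most electrons enter the chain, takes 7 of its subunits from the mitochondrial genome. Of these, mt-Nd3 had the largest fold change of the 13 mRNAs, and it was counted at 37.6, 46.4, 50.5 and 49.2 CPM in WT replicates 1 to 4 and 53.5, 59.4, 66.2 and 61.2 CPM in SA/SA replicates 1 to 4. Every SA/SA mouse lay above every WT mouse, with means of 45.9 ± 5.80 CPM in WT and 60.1 ± 5.24 CPM in SA/SA livers (SD, n = 4 each). The fold change was 1.31, with a range of 2 SE from 1.11 to 1.54 (log2 fold change 0.39, SE 0.12, edgeR adjusted p = 0.993, unadjusted p = 0.00796), which ranked 61 among all genes tested. Without SA/SA replicate 3, the highest mouse, the log2 fold change was 0.34. It did not pass the test, and its nuclear copy is described with it further on.

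mt-Nd1 and mt-Nd2 were the mRNAs with negative fold changes. mt-Nd2 was counted at 1952, 2117, 2717 and 2109.7 CPM in WT replicates 1 to 4 and 2297, 1865, 1486 and 2279 CPM in SA/SA replicates 1 to 4 (log2 fold change -0.17, SE 0.16, edgeR adjusted p = 0.993). SA/SA replicates 2 and 3 held the lowest values and WT replicate 3 the highest. Without SA/SA replicate 3 the log2 fold change was -0.049, and without WT replicate 3 it was -0.055. mt-Nd1 was counted at 2187, 2644, 3448 and 2726 CPM in WT replicates 1 to 4 and 2664, 2497, 2173 and 2903 CPM in SA/SA replicates 1 to 4 (log2 fold change -0.10, SE 0.15, edgeR adjusted p = 0.993). Its sign turned without WT replicate 3, to 0.023. The other complex I mRNAs of the heavy strand overlapped between genotypes: mt-Nd4 ranged from 2585 to 3009.6 CPM in WT and 2733 to 3046 CPM in SA/SA mice (log2 fold change 0.068, SE 0.10, edgeR adjusted p = 0.993), mt-Nd5 from 1175 to 1725 CPM in WT and 1415 to 1641 CPM in SA/SA mice (log2 fold change 0.089, SE 0.13, edgeR adjusted p = 0.993) and mt-Nd4l from 141 to 210.1 CPM in WT and 147 to 215 CPM in SA/SA mice (log2 fold change 0.030, SE 0.15, edgeR adjusted p = 0.998). mt-Nd4l and mt-Nd4 share 7 bases of the genome.

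mt-Nd6, the complex I subunit of the light strand, was counted at 12.8, 17.2, 18.7 and 10.6 CPM in WT replicates 1 to 4 and 10.9, 22.9, 14.5 and 22.6 CPM in SA/SA replicates 1 to 4. Both genotypes held high and low mice, and the SE was as large as the fold change (log2 fold change 0.26, SE 0.26, edgeR adjusted p = 0.993). Its gene overlaps the end of mt-Nd5 on the opposite strand by 14 bases, and the strand setting of the counting is not given in the sources used here. Relative to the summed counts of the heavy strand mRNAs it stood at 0.0480 ± 0.0114% in WT and 0.0563 ± 0.0164% in SA/SA livers (SD, n = 4 each), a log2 ratio of 0.21 (exact permutation p = 0.429). These percentages also depend on how well poly(A) selection captured each mRNA, which was not tested.

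Complexes III and IV differed little between genotypes. mt-Cytb ranged from 4889 to 6124 CPM in WT and 5171 to 5759 CPM in SA/SA mice (log2 fold change 0.048, SE 0.11, edgeR adjusted p = 0.996). For complex IV, the cytochrome c oxidase that passes electrons to oxygen, mt-Co1 was counted at 11626, 11379.9, 12351 and 11591 CPM in WT replicates 1 to 4 and 10999, 12639, 11406 and 12154 CPM in SA/SA replicates 1 to 4, with the genotypes interleaved (log2 fold change 0.0076, SE 0.10, edgeR adjusted p = 1). The 2 SE range of its fold change ran from 0.871 to 1.16. mt-Co2 ranged from 1058 to 1529 CPM in WT and 1219.8 to 1324 CPM in SA/SA mice (log2 fold change 0.0034, SE 0.12, edgeR adjusted p = 1) and mt-Co3 from 1037 to 1213 CPM in WT and 980.2 to 1265 CPM in SA/SA mice (log2 fold change 0.064, SE 0.11, edgeR adjusted p = 0.996). The signs of mt-Co1 and mt-Co2 turned when library size alone was used for scaling, to -0.033 and -0.040.

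The ATP synthase takes mt-Atp6 and mt-Atp8 from the mitochondrial genome, on reading frames that overlap by 43 bases. mt-Atp8 was counted at 122, 115, 124 and 123 CPM in WT replicates 1 to 4 and 141, 149, 125 and 132 CPM in SA/SA replicates 1 to 4. The highest WT mouse and the lowest SA/SA mouse, replicate 3 of each genotype, were 124 and 125 CPM, so the groups did not overlap but nearly touched (log2 fold change 0.17, SE 0.092, edgeR adjusted p = 0.993). mt-Atp6 ranged from 1602 to 1919.7 CPM in WT and 1767 to 2105 CPM in SA/SA mice (log2 fold change 0.10, SE 0.11, edgeR adjusted p = 0.993).

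The rRNAs had the largest negative fold changes of the members and rested largely on WT replicate 2. mt-Rnr1, the rRNA of the small ribosomal subunit, was counted at 120.3, 252, 196 and 122 CPM in WT replicates 1 to 4 and 125, 145, 154 and 125 CPM in SA/SA replicates 1 to 4 (log2 fold change -0.33, SE 0.23, edgeR adjusted p = 0.993). mt-Rnr2, the rRNA of the large subunit, was counted at 145, 355, 229.6 and 174 CPM in WT replicates 1 to 4 and 191, 159, 183 and 167 CPM in SA/SA replicates 1 to 4 (log2 fold change -0.37, SE 0.24, edgeR adjusted p = 0.993). WT replicate 2 was highest for both and WT replicate 3 next, while WT replicates 1 and 4 lay among the SA/SA mice or below them. Without WT replicate 2 the log2 fold changes were -0.091 for mt-Rnr1 and -0.063 for mt-Rnr2. WT replicate 2 is also the mouse with the highest sum of pancreatic acinar markers, whose part in the rRNA level was not tested. Together the rRNAs were 1.30 ± 0.533 counts per 100 mt mRNA counts in WT and 1.01 ± 0.112 counts per 100 mt mRNA counts in SA/SA livers (SD, n = 4 each), a log2 ratio of -0.29 (exact permutation p = 0.4), and -0.040 without WT replicate 2. The number of mt-Rnr2 counts per mt-Rnr1 count was 1.30 ± 0.131 in WT and 1.29 ± 0.186 in SA/SA livers (SD, n = 4 each) (exact permutation p = 0.857).

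The tRNAs were not measurable in these libraries. Their genes are 59 to 75 bases long, shorter than the 100 bases of a read, and none passed the filter. Of the 22 tRNA rows, 19 were at 0 in all mice, and 4 of the 8 mice had no tRNA count at all. The 3 with counts, given here 5′ to 3′ to show their size against a read, were mt-Tl1 with 2.93 counts in WT replicate 2 and 1.03 in SA/SA replicate 3, mt-Tm with 3.0 counts in WT replicate 1, and mt-Tn with 2.01 counts in SA/SA replicate 2. A count of 0 allows up to 3 counts, or 0.0556 to 0.0792 CPM depending on the mouse, which covers counting error only. No test of tRNA levels was made.
mt-Tl1: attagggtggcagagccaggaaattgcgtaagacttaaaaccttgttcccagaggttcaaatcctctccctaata
mt-Tm: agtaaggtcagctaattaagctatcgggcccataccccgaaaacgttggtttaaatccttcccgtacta
mt-Tn: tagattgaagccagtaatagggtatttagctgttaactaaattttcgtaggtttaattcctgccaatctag

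For 7 of the 13 mRNAs the count table also lists a near-identical nuclear copy. These are unprocessed pseudogenes side by side on the minus strand of chromosome 1 between bases 24611535 and 24616197 (GRCm38), in the order of the mitochondrial genes from mt-Co1 to mt-Nd4. Copies of mt-Co2 (Gm28661), mt-Atp6 (Gm10925), mt-Co3 (Gm28437) and mt-Nd4l (Gm10222) were identical to the mitochondrial gene over the whole copy, as was Gm28439 to the first 876 bases of mt-Nd4. Gm28438 differed from mt-Nd3 by T3C (the mitochondrial base first, counted from 1 at the first base of mt-Nd3). Gm29216 matched the last 483 bases of mt-Co1 except for A1066T, and before that stretch it also differed by T1056A, C1057T, A1059G, A1060G and C1062A. The bases around T3C and A1066T (in capitals) are shown because reads that cover no difference cannot be told apart by sequence.
mt-Nd3: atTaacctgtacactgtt
Gm28438: atCaacctgtacactgtt
mt-Co1: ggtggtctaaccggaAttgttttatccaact
Gm29216: ggattggcaggaTttgttttatccaact

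Counts were divided between each mitochondrial gene and its copy in very different proportions. Of the counts of the mt-Co2 pair, Gm28661 held 75.5, 72.8, 70.5 and 71.9% in WT replicates 1 to 4 and 71.9, 74.9, 72.2 and 73.1% in SA/SA replicates 1 to 4. Gm28437 held 65.5% to 71.5% of those of the mt-Co3 pair. Gm10925 took 33.1% to 44.7% of the mt-Atp6 pair, Gm29216 15.6% to 21.4% of the mt-Co1 pair and Gm10222 15.7% to 38.3% of the mt-Nd4l pair. Gm28439 took 0.0475% to 0.0964% of the mt-Nd4 pair. Identical sequences therefore received most of the counts in some pairs and almost none in another. The pairs differ in shared length, as Gm28439 aligns to 63.6% of mt-Nd4 and Gm29216 to 31.3% of mt-Co1. The shares of these pairs are therefore not directly comparable with those of copies that match nearly the whole gene. As a share of all counts the 7 copies together held 0.954, 0.978, 1.09 and 0.976% in WT replicates 1 to 4 and 0.944, 1.05, 0.977 and 1.05% in SA/SA replicates 1 to 4. How much of this came from the nuclear sequence itself was not tested, and the levels of these 7 mitochondrial mRNAs and their copies are uncertain.

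**Figure D4:**
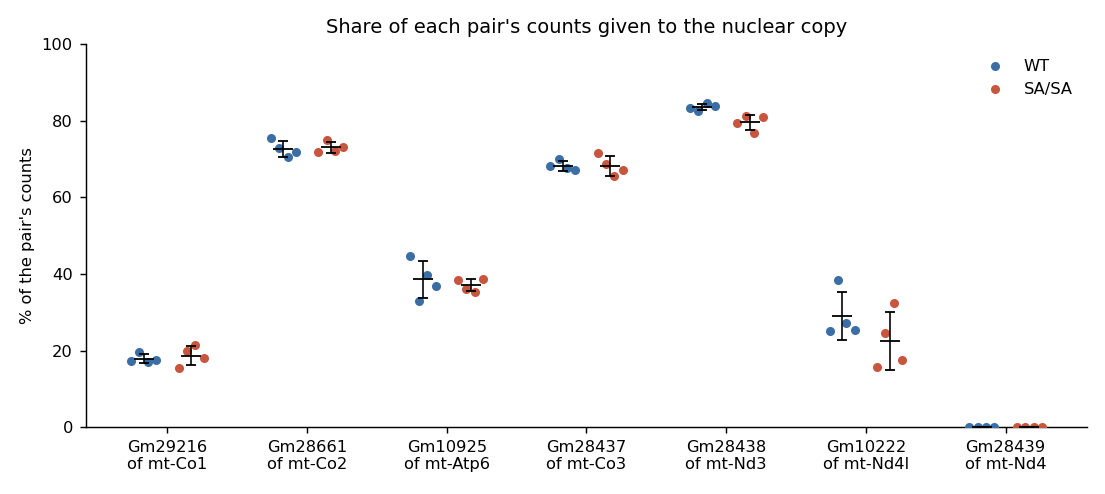
Share (%) of the counts of each pair, a mitochondrial mRNA and its near-identical nuclear copy, that was given to the copy, with 1 point per mouse and the mean ± SD of 4 mice per genotype. The highest share of Gm28439 is 0.0964% and the lowest of Gm28438 76.7%, and the genotypes separate for Gm28438.

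With the copies added, the order of levels per kilobase changed. mt-Co1 stayed first at 9334 ± 519 CPM per kb, while mt-Co2 moved from place 7 among the 15 mRNAs and rRNAs to place 2 among the 13 mRNAs, at 6913 ± 527 CPM per kb. mt-Nd3 went from 152 ± 26.2 to 825 ± 102 CPM per kb, a level that did not differ beyond its spread from that of mt-Nd5 at 813 or mt-Nd4l at 804 CPM per kb. mt-Nd6, which has no near-identical copy, stayed last.

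The separation of the genotypes for mt-Nd3 was not seen in the sum of mt-Nd3 and its copy. Gm28438 was counted at 186, 219.9, 275 and 253 CPM in WT replicates 1 to 4 and 206, 255, 218 and 261 CPM in SA/SA replicates 1 to 4, several times the level of mt-Nd3, with the genotypes overlapping. The sum was 224, 266, 325 and 303 CPM in WT replicates 1 to 4 and 259.8, 314, 284 and 322 CPM in SA/SA replicates 1 to 4, with means of 279.5 ± 44.4 CPM in WT and 295 ± 28.6 CPM in SA/SA livers (SD, n = 4 each). SA/SA and WT mice overlapped, and the log2 ratio of the sum was 0.087 (exact permutation p = 0.543), where mt-Nd3 alone gave 0.39 (exact permutation p = 0.0286, the smallest possible). The genotypes separated in the division of the pair's counts, of which Gm28438 took 83.2, 82.6, 84.5 and 83.7% in WT replicates 1 to 4 and 79.4, 81.1, 76.7 and 81.0% in SA/SA replicates 1 to 4 (exact permutation p = 0.0286, adjusted over the 7 pairs p = 0.2). That share was lower in all 4 SA/SA mice than in any WT mouse and did not pass the adjusted threshold. With the copies added in the edgeR fit, 0 of the 15 genes were called, and mt-Nd4l changed sign, from 0.030 to -0.10.

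**Figure D5:**
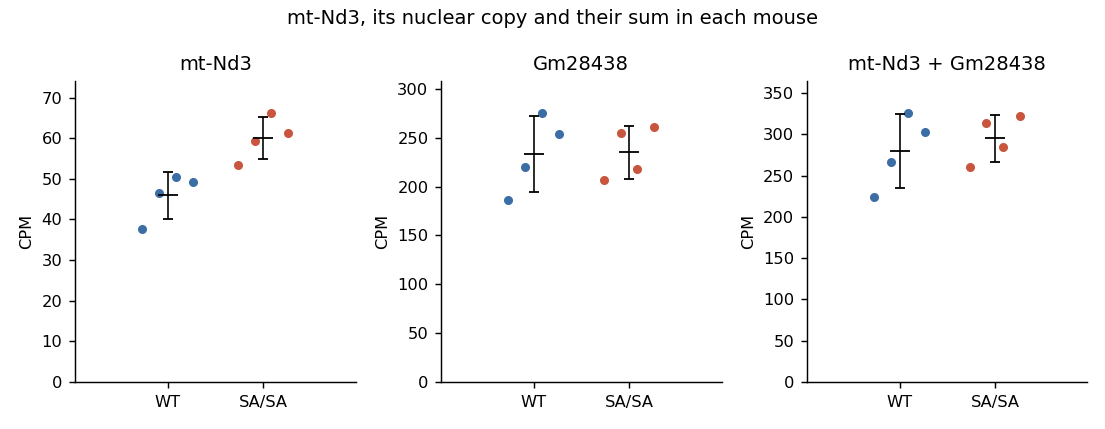
Level in CPM of mt-Nd3 (left), of its nuclear copy Gm28438 (middle) and of their sum (right), each on its own axis from 0, with 1 point per mouse and the mean ± SD of 4 mice per genotype. The genotypes separate for mt-Nd3 and overlap for the copy and for the sum.

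The make-up of the mRNA pool was compared as the share of each mRNA among the 13. mt-Co1 made up 38.0 ± 0.481% in WT and 37.9 ± 0.987% in SA/SA livers (SD, n = 4 each) and mt-Cytb 17.3 ± 1.72% in WT and 17.7 ± 0.422% in SA/SA livers (SD, n = 4 each). None of the 13 shares differed after adjustment (smallest adjusted p = 0.371, exact permutation tests adjusted over 13), nor did those of complexes I, III, IV and V (smallest adjusted p = 0.8, exact permutation tests adjusted over 4). Complex IV mRNAs were 45.9 ± 0.709% in WT and 45.8 ± 1.40% in SA/SA livers (SD, n = 4 each), and complex I mRNAs 30.6 ± 0.879% in WT and 29.7 ± 2.08% in SA/SA livers (SD, n = 4 each). With the copies added, complex V mRNAs were 7.45, 7.44, 7.64 and 7.62% in WT replicates 1 to 4 and 7.76, 7.88, 7.81 and 7.78% in SA/SA replicates 1 to 4. All SA/SA mice then lay above all WT mice, by a log2 ratio of 0.051 (exact permutation p = 0.0286, adjusted over 4 p = 0.114), which did not pass the adjusted threshold. Most of this share was mt-Atp6 with its copy, at 7.15 to 7.35% in WT and 7.40 to 7.54% in SA/SA mice. That share separated the genotypes too, without passing the adjusted threshold (exact permutation p = 0.0286, adjusted over 13 p = 0.248).

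Nuclear genes that act on the mitochondrial genome and its transcripts were taken as 5 lists, of which 61 genes were tested. None was called by edgeR and 0 had an unadjusted p under 0.05, with 34 positive and 27 negative log2 fold changes and a median of 0.035, beside -0.0050 over all genes tested. Genes of mitochondrial transcription were 10 of 10 tested, 7 with a positive and 3 with a negative log2 fold change and a median of 0.12. Polrmt, the mitochondrial RNA polymerase, was counted at 21.4, 28.1, 42.4 and 34.6 CPM in WT replicates 1 to 4 and 27.1, 23.3, 29.5 and 30.0 CPM in SA/SA replicates 1 to 4 (log2 fold change -0.20, SE 0.19, edgeR adjusted p = 0.993), and its WT values spanned those of all SA/SA mice. Tfam, which packages the genome and starts transcription, had a log2 fold change of -0.086, SE 0.13, edgeR adjusted p = 0.993, and the elongation factor Tefm a log2 fold change of 0.20, SE 0.16, edgeR adjusted p = 0.993. The smallest unadjusted p of this list belonged to Mterf1b, a termination factor paralog counted below 1 CPM in every mouse (log2 fold change 0.62, SE 0.33, edgeR adjusted p = 0.993), whose reads may be shared with Mterf1a.

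No gene of the other lists was called either. Replication genes were 10 of 10 tested, 5 with a positive and 5 with a negative log2 fold change and a median of 0.0072, with the nuclease and helicase Dna2 showing the smallest unadjusted p (log2 fold change -0.31, SE 0.21, edgeR adjusted p = 0.993). RNA processing genes were 22 of 23 tested, 13 with a positive and 9 with a negative log2 fold change and a median of 0.055. In that list Ptcd1, a pentatricopeptide repeat protein of mitochondrial RNA metabolism, was counted at 15.3, 16.5, 15.2 and 16.1 CPM in WT replicates 1 to 4 and 13.7, 13.9, 14.2 and 13.4 CPM in SA/SA replicates 1 to 4. All SA/SA mice lay below all WT mice, but the difference did not pass the test (log2 fold change -0.20, SE 0.093, edgeR adjusted p = 0.993). Such a separation was seen in 1 of the 22 processing genes, against 2.3% of all genes tested. The transcription, replication, stability and regulator lists held 0. RNA stability genes were 9 of 10 tested, 4 with a positive and 5 with a negative log2 fold change and a median of -0.019. Lrpprc, which with Slirp protects mitochondrial mRNAs, had a log2 fold change of -0.019, SE 0.10, edgeR adjusted p = 0.998, Slirp a log2 fold change of -0.042, SE 0.12, edgeR adjusted p = 0.996 and the helicase Supv3l1, with the smallest unadjusted p of the list, a log2 fold change of 0.15, SE 0.13, edgeR adjusted p = 0.993. Nuclear regulators were 10 of 10 tested, 5 with a positive and 5 with a negative log2 fold change and a median of -0.0084. The coactivator Ppargc1a was counted at 14.2, 5.54, 7.77 and 11.7 CPM in WT replicates 1 to 4 and 6.08, 6.41, 8.21 and 29.5 CPM in SA/SA replicates 1 to 4 (log2 fold change 0.35, SE 0.51, edgeR adjusted p = 0.993), the highest value being that of SA/SA replicate 4, and Yy1 had the smallest unadjusted p of the list (log2 fold change -0.28, SE 0.15, edgeR adjusted p = 0.993).

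Nuclear genes for subunits of the respiratory complexes were 73 of 74 tested, 71 with a positive and 2 with a negative log2 fold change. Of all genes tested 48.8% had a positive one. The median was 0.12, against 0.064 for the 13 mitochondrial mRNAs and -0.0050 for all genes tested. No subunit gene was called, and 0 had an unadjusted p under 0.05 in edgeR, against 3.4% of all genes tested. For 0 of them did the genotypes not overlap in CPM, against 2.3% of all genes tested. Their summed CPM overlapped, at 12061 to 15395 in WT and 13483 to 16519.6 in SA/SA mice. Their mean log2 CPM was 7.15, 7.33, 7.21 and 6.99 in WT replicates 1 to 4. It was 7.15, 7.44, 7.34 and 7.24 in SA/SA replicates 1 to 4. All these genes were measured in the same mice, so their signs are not independent of one another. Across the 8 mice the level of the mitochondrial mRNAs showed no relation to other groups past the threshold in 3 relations tested on log2 CPM. With the nuclear subunits, Pearson's r was 0.211 and Spearman's rho -0.0952 (exact permutation p = 0.61 and 0.84, adjusted 0.697 and 0.84). For the mitochondrial rRNAs r was -0.198 and rho -0.381 (exact permutation p = 0.697 and 0.36, adjusted 0.697 and 0.54). The transcription genes gave the largest r, 0.649, with a rho of 0.405 (exact permutation p = 0.0875 and 0.327, adjusted 0.263 and 0.54). Leaving out WT replicate 3 and SA/SA replicate 4, the mice farthest from the median mRNA level, gave an r of 0.381 and a rho of -0.0286 for the nuclear subunits. For the rRNAs these became -0.445 and -0.829 (exact permutation p of the rho = 0.0583, adjusted 0.175), and for the transcription genes 0.477 and 0.0857. Without WT replicate 2 the r with the rRNAs changed sign, to 0.293, with a rho of -0.0714. Without SA/SA replicate 3 the transcription genes gave an r of 0.862 and a rho of 0.750 (exact permutation p = 0.0238 and 0.0663, adjusted over the 3 relations 0.0714 and 0.199).

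Within the animal series the genotype difference took different signs for some members. The log2 ratio of SA/SA over WT for mt-Nd2 was 0.17 in the low-numbered and -0.53 in the high-numbered animals, and for mt-Nd1 it was 0.19 in the low-numbered and -0.37 in the high-numbered animals. mt-Rnr1 gave 0.046 in the low-numbered and -0.57 in the high-numbered animals, and mt-Rnr2 0.17 in the low-numbered and -0.74 in the high-numbered animals. Without WT replicate 2, which left WT replicate 3 as the only high-numbered WT mouse, the high-series ratios were -0.39 for mt-Rnr1, -0.43 for mt-Rnr2, -0.57 for mt-Nd1 and -0.71 for mt-Nd2. Without SA/SA replicate 3 those of the same genes were -0.62, -0.85, -0.27 and -0.36. For mt-Nd3 the values were alike, 0.41 in the low-numbered and 0.37 in the high-numbered animals. The interaction of genotype and series was past the adjusted threshold for 0 of the 15 genes in edgeR (smallest adjusted p = 0.321; 0% of all genes tested were called), with 3 of the 15 at an unadjusted p under 0.05, namely mt-Rnr1, mt-Rnr2 and mt-Nd2, and 1622 of all 14629 genes. With all mice the edgeR interaction (log2) was -0.63 for mt-Rnr1, -0.94 for mt-Rnr2, -0.56 for mt-Nd1 and -0.70 for mt-Nd2. Without WT replicate 2 it was -0.44, -0.59, -0.74 and -0.87 for the same genes. Without SA/SA replicate 3 it was -0.67, -1.05, -0.47 and -0.55. Leaving out either mouse left 1 mouse of its genotype in the high-numbered series, so only effect sizes are given. Each series held 2 mice of each genotype. Between the series themselves, with genotype in the model, edgeR called 0 of the 15 and 0 of all genes tested. The smallest adjusted p of the 15 belonged to mt-Rnr1, higher in the high-numbered animals (log2 difference 0.57, edgeR adjusted p = 0.2). Next came mt-Nd4l, lower in the high-numbered animals (log2 difference -0.28, edgeR adjusted p = 0.379). The 13 mRNAs as a whole gave a log2 ratio of their share of counts of 0.071 in the low-numbered and -0.12 in the high-numbered animals.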

How the data were processed

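Liver poly(A) RNA of 4 WT and 4 SA/SA mice had been sequenced from TruSeq stranded mRNA libraries as 100 bp paired-end reads. As deposited by the authors, the values are estimated counts per gene from salmon with length scaling, for 45706 genes; the submitters' processing notes name the build GRCm38 and STAR, SAMtools and DESeq2. The salmon version, annotation and strand setting are not given in the sources used here. The counts were rounded to whole numbers and every column was assigned to a mouse by its animal number (0 columns left over).

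The members and gene lists were chosen with earlier results of these data known. Genotypes were compared across all genes with edgeR 4.0.16 (R 4.3.3; filterByExpr, TMM, quasi-likelihood test, Benjamini-Hochberg threshold 0.05), which was tested on simulated data; DESeq2 1.42.0 and limma 3.58.1 were alternatives. Shares and ratios of single quantities were tested on log2 values by two-sided exact permutation over mice (scipy 1.17.1). Log2 CPM for the correlations used a prior count of 2. Genes named were the 13 mRNAs and 2 rRNAs, Polrmt, Tfam, Tefm, Lrpprc, Slirp, Ppargc1a, and per list the member with the smallest unadjusted p; Plin5, the marker genes and the 3 tRNAs with counts were named after their values were seen. Nuclear copies were GENCODE M21 transcripts in the table with at least 99% identity over at least 90% of their length to a mitochondrial gene (blastn); 45143 of the 45706 rows matched that release. The decision to add copies, and to leave out WT replicate 2 and SA/SA replicate 3 together (and singly for the interaction and correlations), was made after seeing the data. No pair of libraries of a genotype agreed within sampling noise (at least 40.2 chi-square per gene). Nothing states how the mice were allotted, so p-values only set a difference between groups against the spread between these mice. Depth was 39709785 to 54540864 counts per mouse.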

Additional observations from a re-analysis of the deposited data

Results flagged for a closer look

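Among 114 groups of 4 mice searched over 57 quantities, 5 held a mouse far from the other 3 of its genotype, where chance alone gives about 1 in 20, or 5.7. SA/SA replicate 1 was low for mt-Co3, at 980.2 CPM. WT replicate 2 was high for the share of Gm10222 in the mt-Nd4l pair, at 38.3%, and for the share of the nuclear copies in the mRNA counts with copies, at 25.1%. WT replicate 1 was high for the mt-Cytb share of the 13 mRNAs, at 19.9%, which is also the complex III share, since mt-Cytb is its only member.

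In 4 of the 57 quantities the genotypes did not overlap within either series, and the sign was opposite between the low- and high-numbered animals. Within a series this compared 2 mice with 2, and the number that chance alone gives was not computed. Some of these quantities share counts, so they are not independent. The log2 ratios in the low and high series were 0.17 and -0.53 for mt-Nd2, 0.046 and -0.57 for mt-Rnr1, -0.040 and 0.028 for the mt-Co1 share, and 0.068 and -0.15 for the complex I share. In mt-Rnr1 the high-series ratio without WT replicate 2 was -0.39. By the edgeR interaction the adjusted p was 0.347 for mt-Nd2 and 0.321 for mt-Rnr1; for the shares the difference between series was not tested.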

How the results depend on the processing

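In all alternatives run 0 mitochondrially encoded genes were called, and the smallest adjusted p of any of the 15 was 0.642 (DESeq2, mt-Nd3). The count of all genes called was 0 except with DESeq2, which gave 6. Of the 15 log2 fold changes, 10 kept their sign under every alternative. With library size alone mt-Co1 was -0.033 and mt-Co2 -0.040. With copies added mt-Nd4l was -0.10, and the log2 share ratios of mt-Nd4l and complex IV were -0.11 and 0.0075. Without WT replicate 2 and SA/SA replicate 3, mt-Co2 was -0.0063 and mt-Co3 -0.0035. On the TMM library size the mRNA share had a log2 ratio of 0.012. The cause of these sign changes was not tested.

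Leaving out each mouse in turn, the log2 fold changes ran from -0.020 to 0.040 for mt-Co1, -0.075 to 0.10 for mt-Co2, -0.069 to 0.13 for mt-Nd4l, -0.20 to 0.023 for mt-Nd1, -0.0035 to 0.15 for mt-Co3 (that lowest value without both named mice) and 0.31 to 0.44 for mt-Nd3. The log2 ratio of the mRNA share ran from -0.066 to 0.021. Log2 share ratios ran from -0.085 to 0.061 for mt-Co2, -0.093 to 0.11 for mt-Nd4l, -0.034 to 0.18 for mt-Nd5, -0.019 to 0.0068 for mt-Co1, -0.0012 to 0.12 for mt-Co3 and -0.014 to 0.015 for complex IV.

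Replicate numbers are shared by the genotypes, and deviations of same-numbered mice correlated at 0.0565, 0.166, -0.111 and 0.129. Numbers 1, 2 and 4 matched their own number best, while number 3 matched number 4 best. Same-numbered mice also share the animal series. The correlations were low, so same-numbered mice were not taken as pairs. With a replicate block 0 genes were called, the median of the 13 mRNAs was 0.058 and mt-Nd3 was 0.39; the smallest paired p is 0.125. Without 1 mouse the smallest exact p is 0.0571. Without WT replicate 2 or SA/SA replicate 3, the correlation of the mRNA level ran from -0.225 to 0.293 with the rRNAs, from 0.370 to 0.371 with the nuclear subunits and from 0.616 to 0.862 with the transcription genes. The last, without SA/SA replicate 3, had an exact permutation p of 0.0238 before and 0.0714 after adjustment over the 3 relations; these alternatives, and the use of the adjusted p for them, were chosen after seeing the data, and the cause was not tested.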

Other observations

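The red blood cell markers, which as erythroid transcripts come with blood in the liver, summed to 411 to 2647 CPM in WT and 951 to 1154 CPM in SA/SA mice. Kupffer cell markers summed to 221 to 439 and 231 to 498 CPM, endothelial markers to 127 to 183 and 108 to 146 CPM, stellate cell markers to 217 to 295 and 97.4 to 223 CPM, and cholangiocyte markers to 27.2 to 85.5 and 36.7 to 44.0 CPM, in the same order of genotypes. WT replicate 2 had the highest cholangiocyte sum. Adipocyte and muscle markers summed to at most 0.800 CPM in any mouse, and Ckm, Acta1 and Myh4 were at or near 0.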
